A study of Artemisia annua with 12 samples.

Results

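Leaves of Artemisia annua taken after 4 h under supplementary UV-B lamps were compared with leaves taken after 6 h, using the 6 RNA sequencing libraries of these harvests out of 12 in the series. Both harvests came from wild-type plants of Huhao 1, a cultivar with a high artemisinin content, aged 6 weeks. The plants were raised in a greenhouse with 16 h of light a day and were given narrowband UV-B at 1.5 μmol per square metre per second on top of their normal light. The other libraries, from 0 h and 2 h in the same cultivar, served to estimate the spread and to describe what had happened earlier. Each harvest has 3 libraries, and every library combines the latest expanded leaves of 3 plants. The labels list no plants kept without UV-B to 4 or 6 h, so exposure time and clock time cannot be told apart. RNA was extracted from pooled leaves, so fewer cells of a type and less RNA per cell cannot be told apart either.

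As background, plants sense UV-B with the photoreceptor UVR8, which acts through COP1 and the transcription factor HY5 on genes for flavonoid sunscreens, DNA repair and the adjustment of photosynthesis. In Artemisia annua, artemisinin is made in glandular secretory trichomes on the leaf surface. The deposited table holds locus identifiers and no gene names, so neither these pathways nor the markers of leaf cell types could be looked up, and genes are described here by their behaviour. Only 4 identifiers are printed, the 2 largest rises and the 2 largest falls between 4 and 6 h.

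The values are normalised expression per gene as deposited, in a unit the header does not name, with library totals of 857875 to 860276 at 4 h and 852480 to 857663 at 6 h, ranges that did not overlap. Read depth is unknown. At 2 h, replicate 1 stood apart for the 89 genes with a mean above 1000, with a median coefficient of variation of 4.70% against replicate 2 and 5.28% against replicate 3, while those 2 differed by 1.35%. The main results that rest on the 2 h libraries are given again without it, an alternative chosen after the data were seen. Of 63226 genes listed, 25841 reached a value of 1 in at least 3 of the 12 libraries and were tested on the log2(value + 1) scale, and 37385 were not. At 4 h 23557 ± 29.7 genes (SD, n = 3) stood at 1 or more, compared with 23546 ± 103 at 6 h (two-sided p = 0.9 in an exact permutation test, smallest possible 0.1). The 10 highest genes of a library held 14.8% ± 0.263 of the summed values at 4 h and 14.7% ± 0.126 at 6 h (SD, n = 3; two-sided p = 0.7 in an exact permutation test). The ranges of both measures overlapped between the harvests. Replicates were tight for the 89 genes with a mean above 1000, with a median coefficient of variation of 1.89% for the 4 h libraries and 1.86% for the 6 h libraries. Genes with a mean of 1 to 5 varied by 15.9% and 16.4%.

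Between 4 and 6 h the leaf transcriptome moved little in comparison with the earlier intervals, but the harvests were still distinct. Libraries of the same harvest differed by a root mean square of 0.400 on the log2 scale (range 0.380 to 0.418 over 6 pairs). A 4 h and a 6 h library differed by 0.453 (range 0.442 to 0.465 over 9 pairs). Every pair across the harvests was farther apart than every pair within one, and the mean difference of 0.0527 reached the smallest p that 3 libraries against 3 allow (exact permutation test, two-sided p = 0.1). By the same measure a 0 h and a 2 h library were 0.899 apart, and a 2 h and a 4 h library 0.786.

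**Figure D1:**
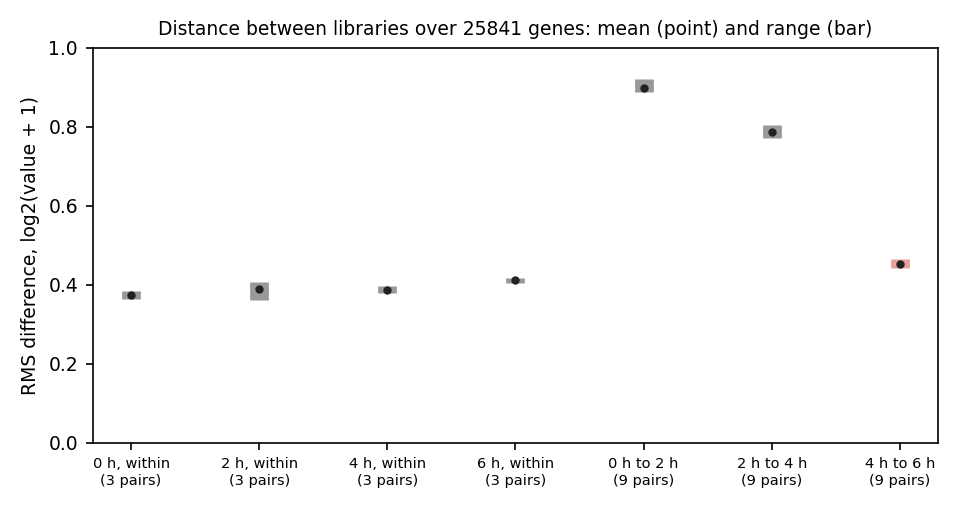
Distance between pairs of libraries, as the root mean square difference in log2(value + 1) over the tested genes; points are means and bars run from the closest to the farthest pair. Pairs across 4 and 6 h (pink) averaged 0.453, just above pairs within a harvest (0.374 to 0.413), while pairs across 0 and 2 h averaged 0.899 and pairs across 2 and 4 h 0.786.

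Gene by gene, 1148 transcripts rose (4.44% of those tested) and 1413 fell (5.47%) between 4 and 6 h at a limma adjusted p under 0.05, so that 9.91% were called. The same test called 57% of genes in the first interval, from 0 to 2 h, and 50.6% in the second, from 2 to 4 h, which shares the 4 h libraries with the one described here. Most of the called changes were small. Of the genes that rose, 245 changed by less than 1.25-fold, 492 by 1.25 to 1.5-fold and 304 by 1.5 to 2-fold on the log2(value + 1) scale. Of those that fell, 538, 603 and 221 lay in these classes. A change of 2-fold or more was left for 107 genes that rose (0.414% of tested genes) and 51 that fell (0.197%), together 0.611%. In the first and second intervals 15% and 10.8% of genes were called with such a change. Between 4 and 6 h only 3 genes in each direction changed 4-fold or more. The balance therefore differed with size, with more falls than rises among all calls and more rises than falls among the large ones. The excess of falls among all calls depended on scaling. With median-ratio scaling 1248 genes rose and 1307 fell, 107 and 48 of them by 2-fold or more. The median log2 change over all tested genes was -0.016, and -0.0039 with that scaling. With a pseudocount of 5 in place of 1, 39 genes rose and 13 fell 2-fold or more, and with 0.1 these numbers were 168 and 101.

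**Figure D2:**
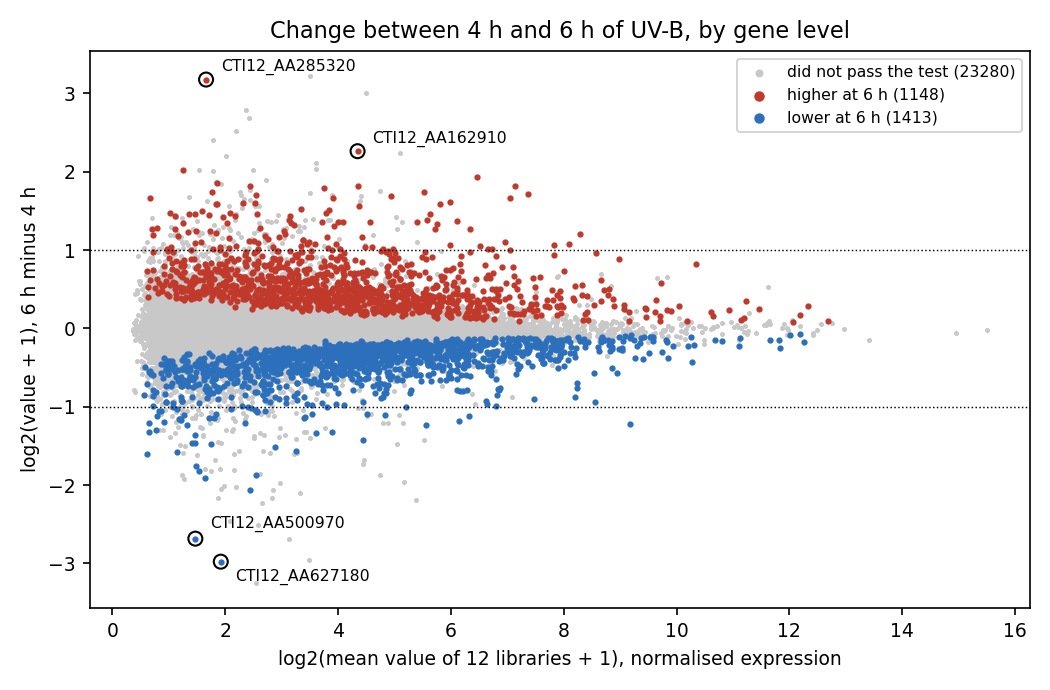
Log2 change from 4 to 6 h of each tested gene against its mean level over the 12 libraries, both as log2(value + 1); red and blue points are the 1148 genes higher and 1413 lower at 6 h, grey points the 23280 that did not pass, and dotted lines mark 2-fold. Circles mark the 4 named genes; among abundant genes, changes well under 2-fold were called.

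A gene that missed the threshold was not thereby shown to be steady, so the 95% interval of each change was examined. For 23388 genes (90.5%) the interval lay wholly within a 2-fold change in either direction on the log2(value + 1) scale, and for 16097 (62.3%) within 0.5. These numbers depend on the pseudocount, with 20104 and 12062 genes at 0.1 and 25147 and 22638 at 5. Among the 23280 genes that were not called, 21233 had an interval inside 2-fold, and for 2047 the data leave room for a 2-fold change or more. Precision followed the level of the gene. With a mean of 20 to 100, 81.7% of 4340 genes had an interval within 0.5, and with a mean above 1000 it was 95.5% of 89 genes. With a mean of 1 to 5 it was 47.1% of 9597 genes, and with a mean under 1 it was 38.5% of 1916. At these levels the scale also compresses the changes, so the interval does not bound the fold of the values themselves.

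The change in this interval was tested directly against that in the first, which has the same length and shares no library with it. For 11748 genes (45.5%) the change between 4 and 6 h differed from the change between 0 and 2 h (limma contrast of the changes, adjusted p under 0.05). In 10727 of these (91.3%) the earlier change was the larger in size, and in 1021 the later one was. Without replicate 1 of 2 h, 11317 genes differed, 10339 of them (91.4%) with the larger change early. The median size of change over all tested genes was 0.14 on the log2 scale from 4 to 6 h, against 0.39 from 0 to 2 h. At the 90th percentile the sizes were 0.46 and 1.27.

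The largest called rise was that of CTI12_AA285320, a transcript whose product the table does not name. It was listed at 0 in all 3 libraries at 0 h, at 0.34, 0.3 and 0.85 at 2 h, and again at 0 in all 3 at 4 h. At 6 h it stood at 6.36, 9.5 and 8.56. The 6 h libraries are thus clear of all 9 others. Its log2 change from 4 to 6 h was 3.18 ± 0.16 (SE), a size set by the pseudocount because the 4 h values are 0 (6.34 with 0.1 and 1.39 with 5). The gene reached 1 in the 6 h libraries alone and so entered the tested set only through the harvest where it is high, which leaves its test without meaning. The same holds for 12 of the 107 genes that rose 2-fold or more, and, through 4 h, for 14 of the 51 that fell. The next largest rise, that of CTI12_AA162910, rests on higher values. This gene was at 4.84, 5.38 and 6.83 at 0 h, rose to 15.08, 15.6 and 15.72 at 2 h, and was at 8.52, 8.97 and 9.63 at 4 h. At 6 h it reached 45.77, 49.41 and 46.21. No harvest of this gene overlapped another, and its course had a first peak, a dip and a higher second peak. The mean went from 9.04 ± 0.558 to 47.1 ± 1.99 between 4 and 6 h (SD, n = 3), a 5.21-fold rise (difference of 2.26 ± 0.094 SE on the log2 scale, limma adjusted p = 1.86e-07).

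The largest called falls were of 2 low transcripts that were detected irregularly. CTI12_AA627180 was listed at 0 in every 0 h library, at 0, 2.83 and 8.51 at 2 h, at 6.86, 11.09 and 4.14 at 4 h, and at 0 in all 3 at 6 h (change on the log2 scale -2.98 ± 0.65 SE). CTI12_AA500970 was at 0 throughout 0 h, at 4.43, 0 and 0 at 2 h, at 7.85, 4.22 and 4.74 at 4 h, and at 0 in every 6 h library (log2 change -2.68 ± 0.54 SE). In both, the 4 h and 6 h libraries did not overlap, while the 2 h libraries disagreed among themselves. Both genes passed the filter only through their 4 h values, so their calls are no support for a fall beyond the values given. No p is therefore given for them. In 5 of the 6 fits that left out a 4 h or 6 h library, CTI12_AA627180 missed the threshold, with log2 changes of -2.98 to -2.67. With a pseudocount of 5 the log2 changes of CTI12_AA627180 and CTI12_AA500970 were -1.27 and -1.07, and with 0.1 they were -6.11 and -5.78.

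**Figure D3:**
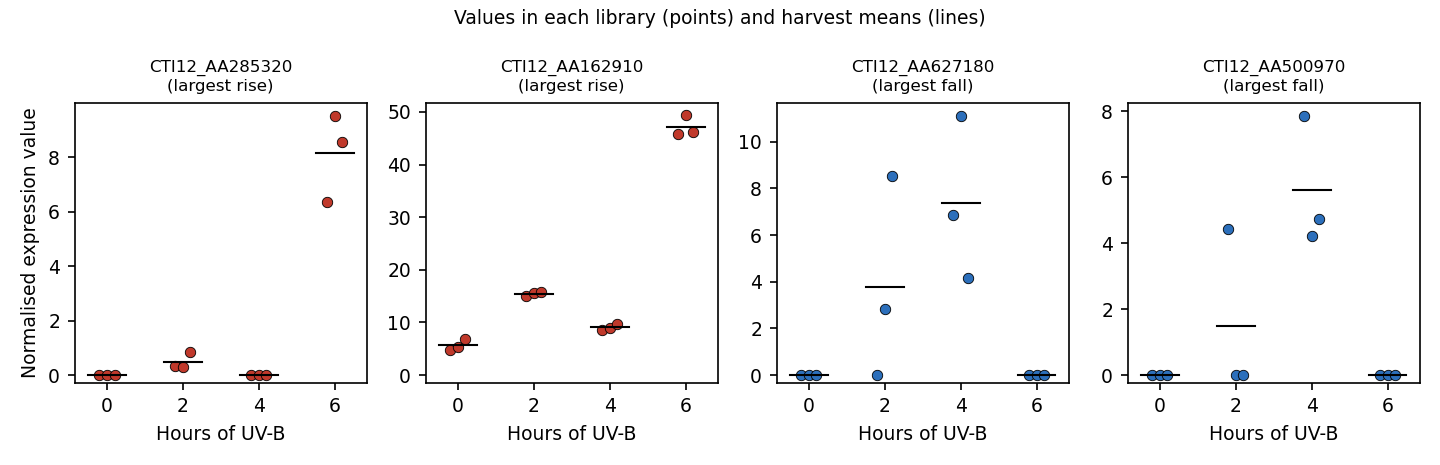
Normalised expression of the 4 named genes in each of the 12 libraries by hours of UV-B; points are libraries, set slightly apart, and lines are harvest means. Both rising genes are highest in every 6 h library, and both falling genes are present in every 4 h library and at 0 at 6 h.

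Beneath the largest rise, some other strong risers had the shape of CTI12_AA162910. Of the 15 largest rises, 13 had a mean lower at 4 h than at 2 h and higher at 6 h than at either. Choosing genes by the step from 4 to 6 h favours this. The 13 include both named risers. They also include the gene ranked 8, which fell from 0 to 2 h, and the gene ranked 14, whose dip was small. Risers are given by rank of their log2 change among called genes and were described after their values were seen. The gene ranked 9 was listed at 0 in each 0 h library and at 22.13, 21.29 and 20.46 at 2 h. Its 4 h libraries held 5.97, 6.3 and 5.23, and those of 6 h held 22.54, 22.97 and 22.39 (log2 change 1.79 ± 0.070 SE, limma adjusted p = 1.10e-07). Here the 6 h libraries lay just beyond the 2 h libraries, with a clear dip at 4 h between them. The gene ranked 12 went from a mean of 18.7 at 0 h to 226.2 at 2 h. It stood at 89.48, 94.02 and 103.66 at 4 h and at 318.2, 303.64 and 323.84 at 6 h, a log2 change of 1.71 (± 0.060 SE, limma adjusted p = 5.55e-08). The gene ranked 15 had means of 14.2, 174.5, 80.8 and 257.8 at the successive harvests, and its 4 h libraries spread only from 78.37 to 82.42. In both genes every 4 h library lay below every 2 h library, and every 6 h library above every 2 h library.

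In others the dip was small or absent. The fourth-ranked riser was at 7.51 in the mean at 0 h and at 50.4 at 2 h. By library it read 58.86, 58.83 and 62.75 at 4 h and 255.89, 226.09 and 216.19 at 6 h, which is 3.87-fold higher (log2 change 1.93 ± 0.13 SE, limma adjusted p = 5.74e-06). Its 4 h libraries lay above the 2 h libraries (44.56 to 55.69) by a small margin, and the larger step came after 4 h. The gene ranked 10 was at 30.98, 30.01 and 30.36 at 2 h, at 32.9, 33.71 and 32.1 at 4 h and at 111, 113.27 and 112.75 at 6 h, after a mean of 3.25 at 0 h. The gene ranked 14 likewise stood at 23.9 at 2 h and 21.2 at 4 h in the mean before reaching 70.7 at 6 h. The riser ranked 8 took another path, from a mean of 237.5 at 0 h through 128 at 2 h to 20.48, 71.55 and 48.65 at 4 h. It read 141.59, 163.39 and 142.4 at 6 h (difference of 1.81 ± 0.41 SE on the log2 scale, limma adjusted p = 0.0203). Its 4 h libraries spread widely, and its standard error is the largest among the risers described here. All 107 genes that rose 2-fold or more had 6 h libraries wholly above the 4 h libraries, where 29.2% of tested genes had harvests without overlap in either direction; the call itself favours such genes.

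Of the 15 largest falls, 10 had their highest harvest mean at 4 h, and 5 were listed at 0 in all 3 libraries of 6 h. Choosing genes by the fall from 4 to 6 h favours both traits. The faller ranked 11 was low at 0 h (mean 0.173) and 2 h (mean 3.67). It read 15.15, 16.06 and 17.93 at 4 h and at 4.44, 5.47 and 5.41 at 6 h, a 3.21-fold lower mean (log2 change -1.51 ± 0.099 SE, limma adjusted p = 4.09e-06). The faller ranked 12 was listed at 0 in all libraries of 0 and 2 h, at 7.03, 7.73 and 7.43 at 4 h and at 1.61, 2.27 and 2.25 at 6 h (limma adjusted p = 8.16e-06). It was thus detected at the last 2 harvests only. The faller ranked 15 rose from a mean of 1.66 at 0 h to 22.0 at 2 h, stood at 43.78, 43.05 and 43.94 at 4 h, and was at 14.57, 17.01 and 15.51 at 6 h (limma adjusted p = 2.05e-06). The faller ranked 3 differed, with a mean of 9.59 at 0 h, 1.86 at 2 h and 5.56 at 4 h, and 0, 0.89 and 0.97 in the 6 h libraries.

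As groups, genes that rose and genes that fell are described by their levels over the 4 harvests, with no test between the groups. The 107 genes that rose 2-fold or more had median values of 1.75, 6.32, 5.13 and 14.1 at the successive harvests. Relative to 0 h, the 3 later harvests had median log2 changes of 1.10, 1.04 and 2.47. The 51 genes that fell 2-fold or more had median values of 0.75, 2.68, 5.60 and 1.56, and median log2 changes against 0 h of 0.81, 2.05 and 0.59. Genes with smaller rises (1041) had median log2 changes of 0.34, 0.24 and 0.68, and those with smaller falls (1362) of 0.20, 0.54 and 0.18. Genes that were not called had 0.12, 0.19 and 0.19. Because the groups were chosen by the step from 4 to 6 h, a low or high median at these harvests is in part the choice itself, and the comparisons against 0 h share those libraries. The 0 h and 2 h libraries entered the choice through the filter and the estimate of spread, but not through the change itself. At 2 h the groups overlapped widely, with interquartile ranges of the log2 change of 0.38 to 2.22 for the strong risers and 0 to 1.74 for the strong fallers.

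**Figure D4:**
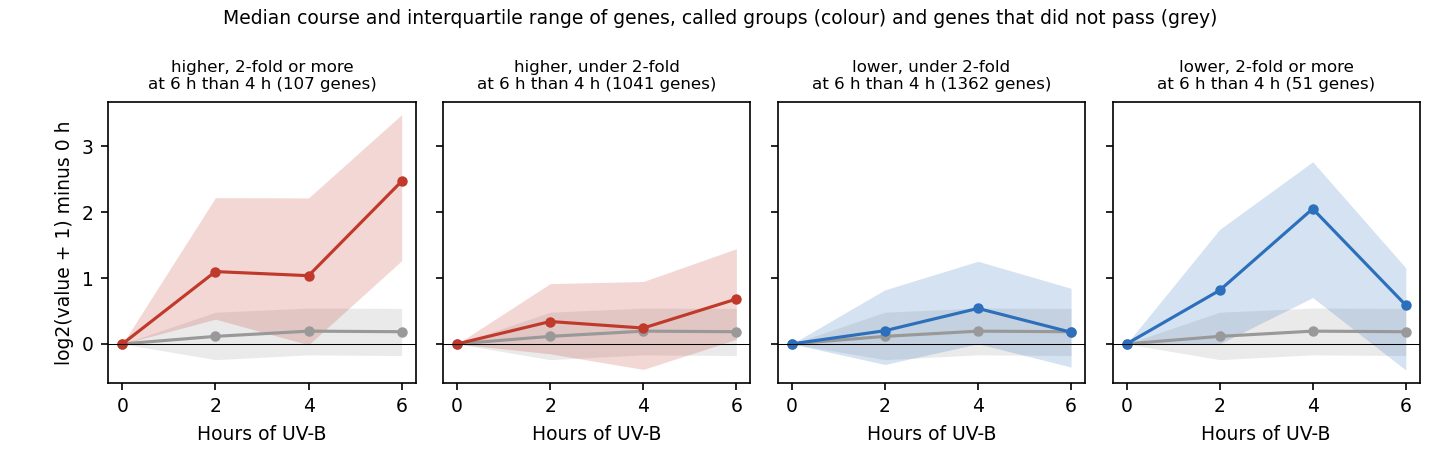
Median course (line) and interquartile range (band) of log2(value + 1) relative to 0 h by hours of UV-B, for genes called between 4 and 6 h (colour) and genes not called (grey, the same in each panel). The 107 strong risers had medians of 1.10 at 2 h and 1.04 at 4 h before 2.47 at 6 h, and the 51 strong fallers peaked at 2.05 at 4 h.

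Since 2 h and 0 h share no library with 4 h and 6 h, the early response could be set beside the late one. Of 2658 genes with a rise of 2-fold or more by 2 h, 292 rose (10.99%) and 308 fell (11.6%) between 4 and 6 h, where 4.44% and 5.47% of all tested genes did. Of the 107 strong late risers, 60 (56.1%) were in this early-raised class, which held 10.3% of tested genes. Of the 51 strong late fallers, 21 (41.2%) were. Genes not called at 2 h (11119) were called least often later, with 257 rises (2.31%) and 279 falls (2.51%). Genes lowered 2-fold or more at 2 h (1221) gave 51 rises (4.18%) and 88 falls (7.21%). The early-raised genes thus had larger called shares than the background in both directions, with about as many rises as falls. Without replicate 1 of 2 h, 2617 genes were in the early-raised class, with 298 later rises (11.4%) and 325 later falls (12.4%). The class then held 57 of 105 strong risers (54.3%) and 18 of 51 strong fallers (35.3%), and genes not called at 2 h gave 320 rises and 335 falls of 12081. Across the 25841 genes, the changes from 0 to 2 h and from 4 to 6 h correlated at r = 0.036 (Spearman's rho = 0.020; 0.036 and 0.019 without replicate 1 of 2 h), a description across genes, which are not independent.

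One estimate of spread per gene enters both calls, so a gene with little spread is called more readily in both. The median standard error was 0.124 for genes raised 2-fold or more by 2 h and 0.140 for genes not called at 2 h, and the part of the spread in the called shares was not tested. The median size of the late change was 0.21 on the log2 scale for genes raised 2-fold or more at 2 h, 0.14 for genes not called at 2 h and 0.14 over all tested genes. Shares within levels rest on the same estimate of spread. With a mean of 20 to 100, 38.6% of the 474 early-raised genes were called between 4 and 6 h. Of all 4340 tested genes at this level, 19.2% were. Genes lowered 2-fold or more at 2 h gave 25.7% of 179, and genes not called at 2 h gave 10.5% of 1204. With a mean of 5 to 20 the early-raised genes gave 23.0% of 803, against 9.37% of all 8905. The lowered genes gave 11.9% of 335 there, and genes not called at 2 h gave 5.37% of 3667. Without replicate 1 of 2 h the early-raised genes gave 41.4% at the higher level and 23.8% at the lower. Genes not called at 2 h then gave 11.9% and 6.04%.

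**Figure D5:**
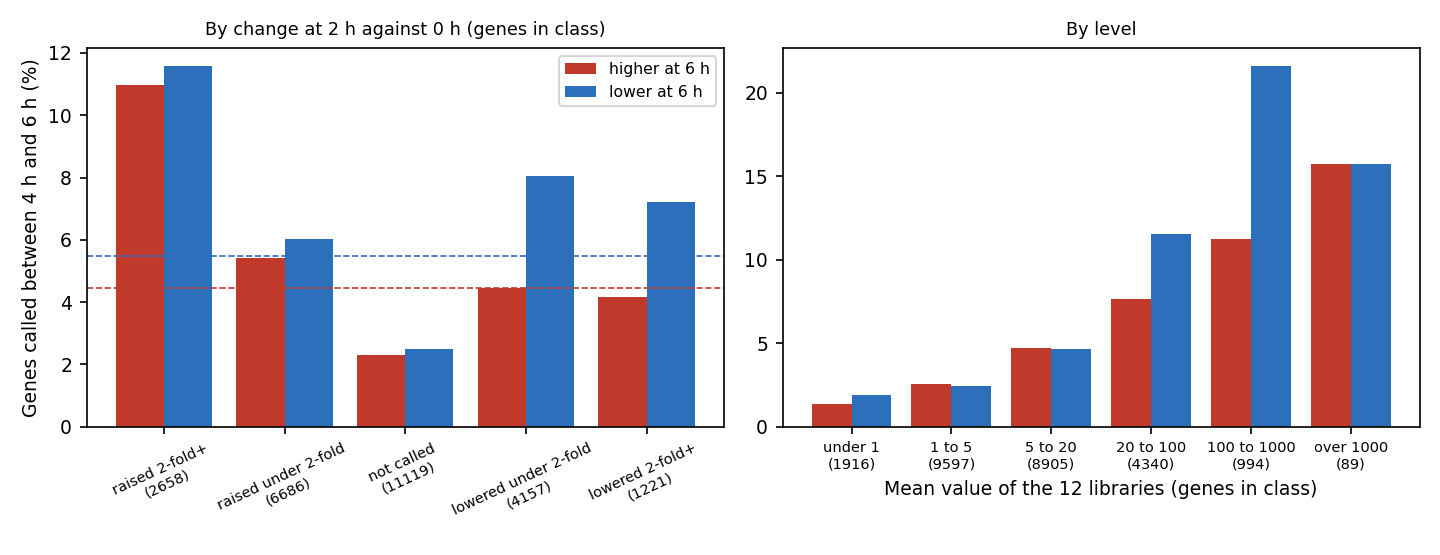
Share of genes called higher (red) or lower (blue) between 4 and 6 h, in classes of the change at 2 h against 0 h (left; dashed lines are all tested genes, 4.44% and 5.47%) and of mean level (right); class sizes are in brackets. The class with a rise of 2-fold or more by 2 h was called most often, 10.99% higher and 11.6% lower, and the called share grew with level up to the class of 100 to 1000.

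Abundant transcripts were called more often, but the median size of their changes was small. Of the 89 tested genes with a mean above 1000, 14 rose and 14 fell, none by 2-fold, with a median size of change of 0.075 on the log2 scale. Among genes with a mean of 100 to 1000, 112 of 994 rose (11.3%) and 215 fell (21.6%), with a median log2 change of -0.045. Large changes did occur at this level. Of the 994, 9 rose and 1 fell by 2-fold or more, where 107 and 51 of all 25841 tested genes did. The median size of change at this level was 0.106 on the log2 scale, against 0.136 over all tested genes. The share called at this level was 32.9%, and 4.98% with a mean of 1 to 5, where the standard error was larger (median 0.149 against 0.0433). In the class above 1000, 9 of the 16 genes with a rise of 2-fold or more by 2 h rose once more from 4 to 6 h and 0 fell. Of the 12 that had been lowered 2-fold or more, 4 fell and 0 rose. With means of 20 to 100 and of 100 to 1000 the early-raised genes had more falls than rises, as all tested genes of these levels did. With a mean of 100 to 1000 they gave 40 rises and 60 falls, where all tested genes gave 112 and 215. With a mean of 20 to 100 they gave 83 rises and 100 falls, where all tested genes gave 332 and 500. This did not hold further down. With a mean of 5 to 20 the early-raised genes gave 100 rises and 85 falls, where all tested genes gave 418 and 416. With a mean of 1 to 5 they gave 59 rises and 59 falls, where all tested genes gave 246 and 232. Without replicate 1 of 2 h, the early-raised genes above 1000 gave 11 rises and 1 fall of 15, and the early-lowered ones 6 falls and 0 rises of 11. With median-ratio scaling and all libraries these were 8 rises and 0 falls of 13, and 4 falls and 0 rises of 19.

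Among these abundant risers, the gene eleventh in mean level over all libraries had means of 1277 and 7848 at 0 and 2 h. It read 5201.85, 5093.78 and 5176.62 at 4 h and at 6400.79, 6180.4 and 6251.02 at 6 h, a 1.22-fold rise (log2 change 0.28 ± 0.042 SE, limma adjusted p = 0.00159). The gene thirteenth in level followed the same course at 1441, 7843, 4460 and 5034 in the mean, a 1.13-fold rise from 4 to 6 h (limma adjusted p = 0.00211). Of the abundant fallers, the gene twelfth in level had means of 6485 and 4149 at the first harvests. It read 4907.46, 4818.75 and 4723.31 at 4 h and at 4322.16, 4332.58 and 4200.59 at 6 h (difference of -0.17 ± 0.019 SE on the log2 scale, limma adjusted p = 0.000191). In these 3 genes the 4 h and 6 h libraries did not overlap, and in each the 6 h mean lay between the 2 h and 4 h means. They were described after their values were seen.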

How the data were processed

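RNA sequencing of leaf was deposited by the authors as one table of normalised expression signal per gene and library, in an unnamed unit that behaves like TPM or FPKM. HISAT2 2.1.0, Salmon and DESeq are named without roles in the submitters' processing notes, with a genome build not given in the sources used here. All columns matched a sample title (0 unmatched). Since read depth is unknown, no counting interval is given and no count model was run. The labels call the 3 libraries of a harvest biological repeats.

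Values were taken as log2(value + 1). One limma model (limma 3.58.1, R 4.3.3, trend and robust options on) was fitted to 12 libraries in 4 groups without a replicate term, and every adjusted p is Benjamini-Hochberg over 25841 genes. A gene was called at an adjusted p under 0.05. A fold printed for one gene divides the mean values and adds no pseudocount. The procedure was tested on simulated data. Named genes are the called genes with the 2 largest rises and 2 largest falls. The comparison, groups and lists were chosen with earlier results of these data known. Pathway and marker lists were not tested, as nothing pairs identifiers with names.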

Additional observations from a re-analysis of the deposited data

Results flagged for a closer look

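The change between 4 and 6 h differed from the change between 0 and 2 h in 11748 genes, by a test of the difference itself (limma contrast, adjusted p under 0.05). All 4 named genes were among them. For CTI12_AA285320 the later log2 change exceeded the earlier by 2.61, and for CTI12_AA162910 by 0.95 (limma adjusted p = 0.000141; 0.000534 without replicate 1 of 2 h). For CTI12_AA627180 the difference was -4.71 and for CTI12_AA500970 it was -3.50, and without replicate 1 of 2 h these were -5.57 and -2.68. CTI12_AA285320, CTI12_AA627180 and CTI12_AA500970 passed the filter only through the harvest where they are high, so no p is given for them. In the last 2 genes the 2 h libraries disagreed among themselves, and for all but CTI12_AA162910 a harvest at 0 makes the size depend on the pseudocount. The named genes were chosen by their change between 4 and 6 h, so a difference from another interval is in part that choice.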

How the results depend on the processing

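The counts of genes that rose and fell between 4 and 6 h stayed within 1.5 times of 1148 and 1413 with either other pseudocount (0.1 or 5), without a filter, with median-ratio scaling, with limma without trend and robust estimation, a fit of the 6 libraries alone and a replicate block. No called gene changed sign in any of these fits. The 2-fold counts moved with the pseudocount, to 168 rises and 101 falls with 0.1 and to 39 and 13 with 5. Leaving out 1 of the 6 libraries gave 834 to 890 rises and 892 to 1077 falls, the fewest falls without replicate 2 of 4 h, with 108 to 117 and 48 to 69 at 2-fold or more. Of the 158 genes changed 2-fold or more, 126 (79.7%) were called in all 6 such fits, and of all 2561 called genes 1371 (53.5%). Without filter, 38498 of 41514 genes had a 95% interval within 1 and 29055 within 0.5 on the log2 scale, as more genes were tested. With a minimum of 2 in place of 5, genes near 0 at 4 h and present at 6 h numbered 2, and those with the opposite course 4; with 20 both were 0. Without replicate 1 of 2 h, an alternative chosen after seeing the data, 1248 genes rose, 1596 fell and 11317 differed from the first interval. A pseudocount of 5 also changed which genes fell in each class of the 2 h change. The class raised 2-fold or more at 2 h then held 190 later rises in place of 292. The class raised under 2-fold held 507 in place of 363. Replicate numbers are not said to pair plants across harvests, so the main model was planned without a replicate term. Same-numbered libraries of 4 and 6 h did not deviate together (r = -0.024 to -0.00017 across genes). With the replicate block 993 genes were higher at 6 h and 1210 lower, 108 and 49 of them by 2-fold or more. The interaction count could not be computed from the 6 libraries alone, which lack the earlier harvests.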

Other observations

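With presence set at 5 or more in all 3 libraries of a harvest and absence at 0.1 or less, 1 gene appeared between 4 and 6 h, CTI12_AA285320, and 1 disappeared. The one that disappeared was listed at 9.71, 5.21 and 11.77 at 4 h and at 0 in every 6 h library. It was already irregular before, with 8.04, 0 and 4.96 at 0 h and 14.84, 0 and 3.87 at 2 h, and it did not pass the test (log2 change -3.24 ± 0.99 SE, limma adjusted p = 0.0711). A gene near this limit was at 0 in all 3 libraries at 4 h and at 3.5, 4.96 and 11.34 at 6 h, after 2.06, 16.24 and 0 at 0 h.

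The genes that changed 2-fold or more between 4 and 6 h were also described by their spread at the earlier harvests, whose libraries enter the calls through the shared estimate of spread. Over the 0 h and 2 h libraries the median standard deviation within a harvest was 0.153 on the log2 scale for the 107 that rose and 0.191 for the 51 that fell, against 0.133 for all tested genes. A mean under 5, where spread is larger, was held by 44 of the 107 and 36 of the 51. Of all 25841 tested genes, 11513 had such a mean. For smaller called changes the median standard deviation was 0.0887 and 0.0784, values that the calling itself favours.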
